A study of Bos taurus with 15 samples.

Results

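The genes described here are 10 heat-shock proteins, inducible chaperones and their regulator in the bovine thymus: HSPA1A, HSPA8, HSPH1, HSPD1, HSPE1, HSPB1, DNAJB1, DNAJA1, HSF1 and BAG3. They were taken from the array by symbol, either as the gene name of a bovine probe or in brackets in its description. That gave 11 probes for the 10 genes, out of 21475 bovine probes and 14541 symbols on the array. HSPA1A had 2 probes and is described by the brighter one. For 5 genes the symbol was the probe's own gene name. For the other 5 (HSPA1A, HSPH1, HSPD1, HSF1 and BAG3) it came from a description of similarity to the human gene.

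Thymus was collected from 15 Holstein cows at slaughter. Of these, 7 were untreated and 8 received the glucocorticoid drug prednisolone orally for 35 days, at a daily dose of 30 mg per head. The labels give no age, sex or pooling, and name no other treatment. Groups follow each sample's treatment label, while the protocol text of the labels describes prednisolone for every sample, the controls included. RNA of 1 animal was hybridised with 1 dye to 1 array, so that replicates are animals, numbered here in sample order only. The question of the comparison is how the thymus transcripts of treated cows differ from those of untreated cows.

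Chaperones hold unfolded proteins and help them to fold. HSP70 proteins do this in cycles of ATP use, started by J-domain co-chaperones such as DNAJB1 and DNAJA1 and reset by nucleotide exchange factors such as HSPH1 and BAG3. HSF1 is the transcription factor of the heat-shock response. It is held inactive by chaperones and, when unfolded proteins build up, induces HSPA1A, DNAJB1, HSPH1 and related genes together. The glucocorticoid receptor, the target of prednisolone, is itself kept ready for its hormone by HSP70 and HSP90.

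Values are log2 intensities relative to the 75th percentile of the array's bovine spots, so that 0 is the signal at that percentile. They compare animals for 1 probe. They do not compare genes with each other. Each array showed 67.1% to 77.7% of its bovine spots well above background. Precision is limited by the number of arrays. The arrays lay on 4 slides: slide 1 held controls 1, 2 and 5 and prednisolone 6, slide 2 control 3 and prednisolone 3, 5 and 8, and slide 3 controls 4, 6 and 7 and prednisolone 1. Slide 4 held prednisolone 2, 4 and 7 only. Its arrays had 1030, 1050 and 840 outlier spots, against 5 to 17 on the others. Of 13 kept thymocyte marker genes the summed level was 250 to 300 times the 75th percentile signal in controls and 261 to 318 times in treated cows. CD4, RAG2 and CD5 had no kept probe. In bulk tissue, fewer cells of a type and less RNA per cell cannot be told apart.

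2 animals, 1 in each group, stood apart from the rest. In control 6 and in prednisolone 7, 9 of the 10 heat-shock genes had the highest value of the animal's own group, HSF1 being the exception. The same held for 753 of 16069 kept probes, 4.69%. The 2 animals were singled out after the values were seen, so that this is a description with no test. Among the 9 genes the excess was largest for the stress-inducible HSPH1 and HSPA1A and smallest for the mitochondrial HSPE1, in both animals. The treatment differences and the correlations below are therefore given with and without these 2 animals.

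**Figure D1:**
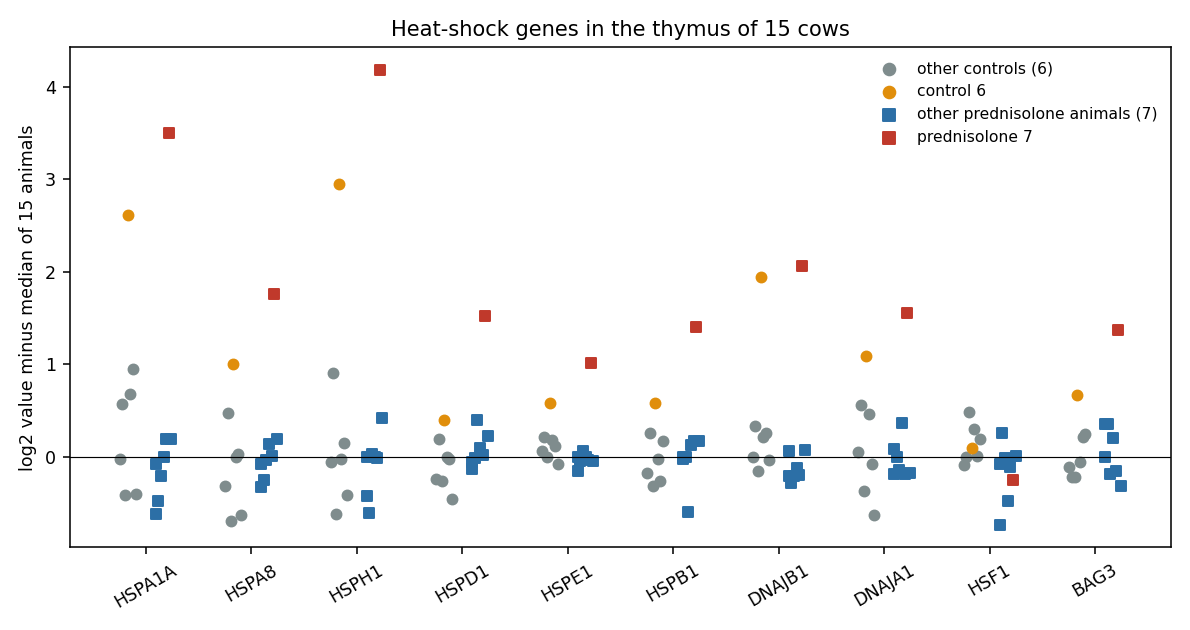
Log2 value of each heat-shock gene in each animal, minus the median of the 15 animals. Circles are controls and squares prednisolone animals. Control 6 (orange) and prednisolone 7 (red) lie above the rest of their group for every gene but HSF1.

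HSPH1 (probe A_73_110555) encodes HSP110, which resets HSP70. The other 6 controls lay between 1.56 and 3.08 and control 6 at 5.12. The other 7 prednisolone animals lay between 1.57 and 2.59 and prednisolone 7 at 6.35. Control 6 was thus 7.9 times the median of the other controls and prednisolone 7 was 18.1 times that of the other treated animals, the largest ratios among the 10 genes. On slide 4 the other 2 arrays gave 2.20 and 2.59, and on slide 3 the other 3 gave 1.76, 2.32 and 2.17, so that both high animals stood alone on their slides. The SD of HSPH1 over 15 animals was 1.35, larger than that of 98.4% of kept probes. Without the 2 animals it was 0.42, larger than that of 74.9%.

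HSPA1A (probe A_73_116780) encodes the inducible HSP70. The other controls ranged from 3.59 to 4.95, and control 6 reached 6.61. The other treated animals ranged from 3.39 to 4.20, and prednisolone 7 reached 7.50. These are 5.05 and 11.9 times the medians of the other animals in each group. Mammalian HSP70 genes have near-identical copies, and whether this probe tells them apart was not tested. A probe that the array files call HSPA1B, whose transcript the cattle gene table (assembly ARS-UCD2.0) now gives to HSPA1A, showed 5.07 and 10.0 times. The dimmer second probe of HSPA1A, well above background in 6 of 7 controls and 6 of 8 treated animals, showed 2.86 and 5.72 times. All 3 probes had their highest value of each group in the same 2 animals.

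HSPA8 (probe A_73_115239) encodes the constitutive HSP70 of the cytosol. It lay between 2.97 and 4.14 in the other controls and at 4.66 in control 6. In the other treated animals it lay between 3.34 and 3.86, and in prednisolone 7 at 5.42. The ratios to the other animals' medians were 2.23 and 3.45, smaller than for the inducible HSPA1A in both animals. Control 5 was the next highest control for both HSPA8 (4.14) and HSPH1 (3.08).

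The J-domain proteins hand substrates to HSP70 and start its ATP use. DNAJB1 (probe A_73_110248) lay between 1.47 and 1.96 in the other controls and at 3.56 in control 6. It lay between 1.34 and 1.70 in the other treated animals and at 3.68 in prednisolone 7. These ratios were 3.55 and 4.75. The gap stood against an SD of 0.20 over the other 13 animals and of 0.099 between the spots of an array. DNAJA1 (probe A_73_103088) lay between -1.31 and -0.12 in the other controls and at 0.41 in control 6. It lay between -0.86 and -0.31 in the other treated animals and at 0.88 in prednisolone 7, with ratios of 2.15 and 3.25.

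BAG3 (probe A_73_104415) couples HSP70 to the clearance of damaged proteins. It lay between -0.70 and -0.23 in the other controls and at 0.19 in control 6. It lay between -0.79 and -0.12 in the other treated animals and at 0.89 in prednisolone 7. The ratios were 1.69 and 2.58. HSPB1 (probe A_73_121360), a small heat-shock protein that keeps unfolded proteins soluble, lay between 3.87 and 4.44 in the other controls and at 4.76 in control 6. It lay between 3.59 and 4.35 in the other treated animals and at 5.58 in prednisolone 7. Its ratios were 1.59 and 2.64, so that prednisolone 7 stood further out than control 6 for both genes.

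HSPD1 and HSPE1 encode the chaperonin of mitochondria and its lid, and lie next to each other in the cattle gene table. HSPD1 (probe A_73_121148) lay between 2.28 and 2.93 in the other controls and at 3.13 in control 6. It lay between 2.60 and 3.13 in the other treated animals and at 4.25 in prednisolone 7. HSPE1 (probe A_73_118607) lay between 2.67 and 2.96 in the other controls and at 3.32 in control 6. It lay between 2.59 and 2.80 in the other treated animals and at 3.76 in prednisolone 7. The ratios were 1.45 and 2.82 for HSPD1 and 1.41 and 2.06 for HSPE1. Without the 2 animals HSPE1 was among the steadiest transcripts of the array, with an SD of 0.10, larger than that of only 4.14% of kept probes. The 2 spots of HSPD1 differed by up to 0.66 on an array, more than its SD over 13 animals of 0.23.

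HSF1 (probe A_73_113442), the regulator, did not share the pattern. Its values ran from -5.74 through a median of -5.55 to -5.16 in controls and from -6.38 through -5.74 to -5.39 in treated animals. Control 6 (-5.55) and prednisolone 7 (-5.90) lay within these ranges. Its probe was dim. One of its spots was well above background on 13 of 15 arrays and the other on 3, and they differed by a median of 1.47. The SD between spots, 1.1, exceeded the SD between animals, 0.30. Another probe described as similar to heat shock factor protein 1, outside the selection, was not well above background on any array. The values of HSF1 therefore lie close to background.

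**Figure D2:**
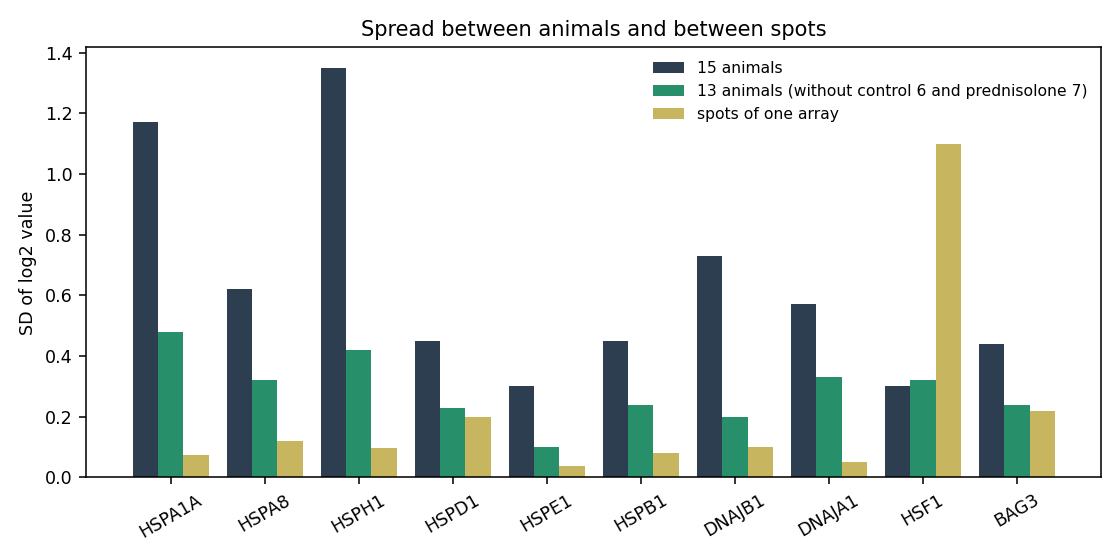
SD of the log2 value of each heat-shock gene over 15 animals, over the 13 animals without control 6 and prednisolone 7, and between the spots of an array. The SD of HSPH1 goes from 1.35 to 0.42 without the 2 animals, and only for HSF1 is the SD between spots above that between animals.

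Of their bovine spots, the arrays of control 6 and prednisolone 7 had 71.5% and 77.7% well above background, and the latter is the highest share of the 15. The probes of the 9 genes that were high in both animals had SDs between spots of 0.038 to 0.22. None of the kept genes of 10 cell type marker lists was highest in both animals, beside 4.69% of all kept probes. Of these marker genes PDGFRB and CD79B were lowest in both, beside 3.76% of all kept probes. The thymocyte sum was 297 in control 6, rank 2 of 7 controls from the top, and 314 in prednisolone 7, rank 2 of 8 treated animals. Control 6 was the lowest control for endothelium (0.668; controls up to 0.975) and macrophage markers (11; up to 21.4). The summed level of 6 skeletal muscle markers was 8.92 in control 6, the highest of the controls (1.25 to 8.92), and 5.96 in prednisolone 7 (treated range 0.637 to 10.2), with MYH2 and CKM not kept. The part of these cells in the heat-shock values was not tested.

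The treatment comparison gave no difference that passed. None of the 10 genes passed in the limma fit over all kept probes, where 0 of 16069 (0%) did. At an unadjusted p under 0.05 there were 1138 probes (7.08%) and 1 of the 10 genes, HSF1, which was lower, as 3.1% of all kept probes were at that p. 6 genes were higher and 4 lower with prednisolone, with a median log2 difference of 0.024, beside 8016 higher (49.9%) and 8053 lower and a median of 0 over all kept probes. The values of the groups overlapped for all 10. Among all kept probes 19 (0.118%) did not overlap.

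For HSPH1 the groups differed by 0.03 ± 0.67 (SE; 95% interval -1.39 to 1.46; limma adjusted p = 0.996). For HSPA1A the difference was -0.25 ± 0.58 (-1.48 to 0.97; limma adjusted p = 0.956). For HSPH1 the interval holds log2 changes beyond 1 upward and downward. Without the 2 animals HSPH1 differed by -0.08 ± 0.23 (-0.56 to 0.41) and HSPA1A by -0.37 ± 0.24 (-0.88 to 0.14). Leaving out prednisolone 7 alone gave -0.71 for HSPA1A and -0.50 for HSPH1. Leaving out control 6 alone gave 0.086 and 0.45. The sign for these genes thus depended on which of the 2 animals was in the comparison. With slide as a fixed block HSPA1A was -0.84 (limma adjusted p = 0.763), and without slide 4 it was -0.76. Within slides 1, 2 and 3 it was -0.05, -0.79 and -1.67. Slide 4 held treated animals only, so neither fit takes a treatment difference from it. Both fits thus leave prednisolone 7 out of the difference and keep control 6. The second probe of HSPA1A gave -0.98 ± 0.56 (limma adjusted p = 0.743) and, with the block, -1.58 (0.484). The probe called HSPA1B gave -0.02 ± 0.55 and, with the block, -0.54. HSPH1 with the block was -0.43.

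For the co-chaperones, DNAJB1 differed by -0.22 ± 0.36 (limma adjusted p = 0.932), DNAJA1 by 0.02 ± 0.29 (limma adjusted p = 0.995) and BAG3 by 0.13 ± 0.22 (limma adjusted p = 0.935). DNAJA1 was -0.03 ± 0.18 and BAG3 0.06 ± 0.13 without the 2 animals. With slide as a fixed block DNAJB1 was -0.43, DNAJA1 -0.17, BAG3 0.09, HSPA8 -0.03 and HSPB1 0.03. DNAJB1 without the 2 animals was -0.23 ± 0.098, an unadjusted limma p of 0.0334 and an adjusted p of 0.932. In that fit 823 of 16069 probes (5.12%) had an unadjusted p under 0.05. A further probe read beside DNAJB1 (A_73_106454), outside the selection, gave 0.12 ± 0.34 over all animals and 0.05 ± 0.18 without the 2. With the block it gave -0.34. Whether it measures DNAJB1 was not tested. HSPA8 differed by 0.19 ± 0.31 (limma adjusted p = 0.929) and HSPB1 by 0.12 ± 0.23 (0.943), and without the 2 animals by 0.14 ± 0.17 and 0.03 ± 0.14. The mitochondrial HSPD1 differed by 0.31 ± 0.21 (95% interval -0.14 to 0.77; limma adjusted p = 0.796) and its partner HSPE1 by -0.05 ± 0.15 (-0.38 to 0.27; 0.963). Without the 2 animals they were 0.21 ± 0.12 and -0.11 ± 0.066. With slide as a fixed block HSPD1 was 0.05 and without slide 4, which holds only treated animals, 0.04. HSPE1 was -0.19 and -0.20. Whether the differences of the chaperonin and its lid differ from each other was not tested.

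HSF1 differed by -0.32 ± 0.13 (95% interval -0.60 to -0.03; limma adjusted p = 0.688). The exact permutation test, two-sided and over all splits of the animals, gave p = 0.0351. Over the 64 arrangements that keep slides the exact p was 0.0156, the smallest that this test can give. With slide as a fixed block the limma difference was -0.57 (adjusted p = 0.264), and within slides 1, 2 and 3 it was -0.61, -0.27 and -0.83. On each of these slides 1 of the groups had 1 animal only. The probe was well above background in 7 of 7 controls and 6 of 8 treated animals, and the spot that was mostly at background gave -0.21 and the other -0.42. HSF1 differed by -0.31 ± 0.15 without the 2 animals. The adjusted value did not pass in any of these fits.

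**Figure D3:**
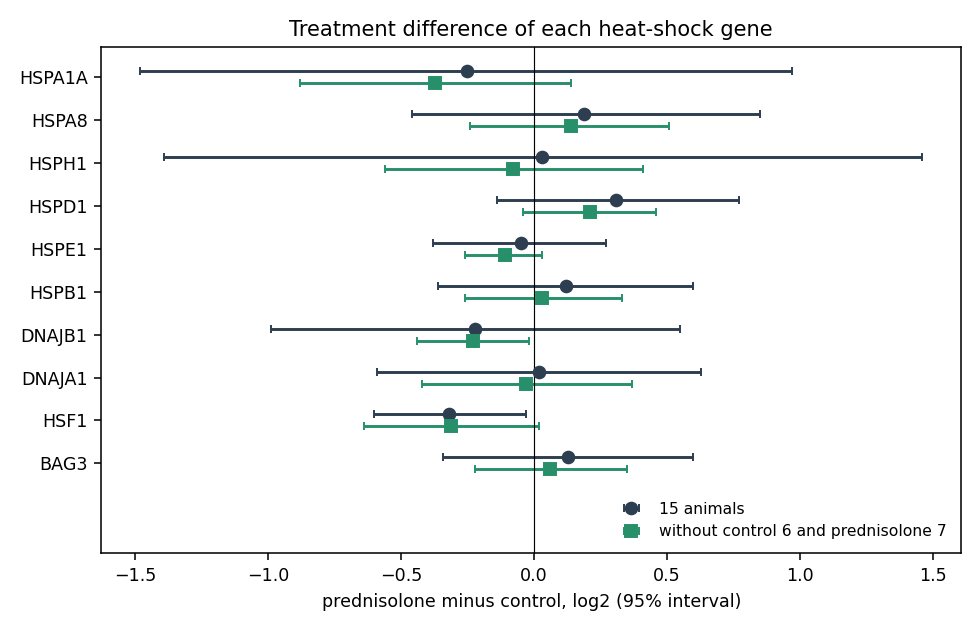
Log2 difference between prednisolone and control animals for each heat-shock gene, with its 95% interval, over 15 animals (circles) and without control 6 and prednisolone 7 (squares). The interval of HSPH1 runs from -1.39 to 1.46 with all animals and from -0.56 to 0.41 without the 2.

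In the F test of the slide terms 4911 of 16053 probes passed (30.6%), and 0 of the 10 genes did, with the lowest limma adjusted p for HSF1 (0.116). Between 5.76% (DNAJA1) and 47.6% (HSPD1) of a gene's spread lay between slides, where the median of all kept probes was 42.8%. The 2 high animals, on slides 3 and 4, are part of the within-slide spread in this test.

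How far the genes moved together across animals was tested by fitting every kept probe on the value of 1 heat-shock gene at a time, with slide as a block. Over 15 animals 46 of 90 ordered pairs of the 10 genes passed in limma, for 8 of the genes as predictor. Of all kept probes, the share that passed with a positive slope was 0.579% for HSPA1A, 0.398% for HSPA8, 0.411% for HSPD1, 0.566% for HSPE1, 0.236% for HSPB1, 0.622% for DNAJB1 and 0.485% for DNAJA1. It was 0.0124% for BAG3 and 0% for HSF1. HSPH1 as predictor called 7 of 9 others, among 101 probes with a positive slope (0.629%) and 69 with a negative one (0.429%). HSPH1 and DNAJB1 gave a limma adjusted p of 7.92e-06, and HSPA1A and DNAJB1 gave 0.000253, each the larger of the p-values with either gene as predictor. BAG3 and HSF1 called none of the others. Without control 6 and prednisolone 7, 0 of 90 passed in limma, and without prednisolone 7 alone 13 did. Without both animals, 12 of the 36 pairs without HSF1 had an unadjusted permutation p of r under 0.05. The matching share over all kept probes was not computed, so this count has no background beside it. With HSPH1 as predictor the slopes were, over 15 and 13 animals, 0.88 and 0.91 for HSPA1A and 0.45 and 0.75 for HSPA8. For DNAJB1 they were 0.55 and 0.39, and for HSPD1 0.26 and 0.29. They were 0.45 and 0.54 for DNAJA1, 0.32 and 0.30 for HSPB1 and 0.22 and 0.17 for HSPE1, and BAG3 turned from 0.27 to -0.19. With HSPH1 as predictor the calls were thus lost while the slopes of the 7 called genes stayed positive. With HSPA1A as predictor the slopes of all 6 called genes fell, as from 1.04 to 0.56 for HSPH1. With HSPA8 as predictor those of all 7 fell, as from 1.09 to 0.39 for DNAJB1. With DNAJB1 as predictor that of HSPA1A rose from 1.59 to 2.14.

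Among the remaining 13 animals the chaperones still differed in how alike they were. The values without HSF1 gave 36 pairs, of which 27 had a Pearson r above 0, with a median of 0.38 (-0.53 to 0.88). With slide means subtracted the median was 0.58 (-0.45 to 0.92). 45 pairs were computed in all. HSPA8 and HSPH1 were the most alike (r = 0.88, permutation p = 5e-05; Spearman rho = 0.89, permutation p = 0.00011). HSPA8 and HSPD1 had r = 0.80 (permutation p = 0.00119; rho = 0.82, p = 0.00112). Of all kept probes 0.0187% had an r with HSPA8 at least as high as that of HSPH1, the smallest such share among the pairs. In the other direction it was 0.0373%. For HSPA8 and HSPD1 the shares were 0.0996% with HSPA8 and 0.666% with HSPD1. The shares of the other pairs varied. With DNAJB1 they were 0.0436% for HSPE1, 0.0685% for HSPH1 and 0.0996% for HSPA1A. In the other direction, for DNAJB1 with each of these genes, they were 0.28%, 0.442% and 0.0685%. For HSPA1A and HSPH1 the shares were 0.398% with HSPA1A and 1.74% with HSPH1. For HSPH1 and HSPD1 they were 1.91% with HSPH1 and 5.36% with HSPD1.

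Other pairs had lower values. HSPA1A and DNAJB1 had r = 0.71 (permutation p = 0.00702; rho = 0.60, permutation p = 0.0322), and 0.82 with slide means subtracted. HSPH1 and DNAJB1 had r = 0.72 (permutation p = 0.00445; rho = 0.59, p = 0.0346), and HSPA1A and HSPH1 had 0.62 (permutation p = 0.0230; rho = 0.58, p = 0.0446). HSPA8 and DNAJA1 had 0.68 (permutation p = 0.00992; rho = 0.45, p = 0.124). DNAJB1 and HSPE1 had 0.75 (permutation p = 0.00339; rho = 0.57, p = 0.0450). DNAJB1 and DNAJA1 had 0.40, and 0.71 with slide means subtracted (exact permutation p within slides = 0.0242). In the limma fits over all kept probes none of the pairs passed over 13 animals, the smallest adjusted p without a slide term being 0.0692.

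The neighbours HSPD1 and HSPE1 had r = 0.35 (permutation p = 0.245; rho = 0.34, p = 0.264). With slide means subtracted their r was 0.56 (exact permutation p within slides = 0.0479). BAG3 had a negative r with HSPA1A (-0.15, permutation p = 0.618; rho = -0.25, p = 0.416) and with HSPH1 (-0.53, permutation p = 0.0617; rho = -0.48, p = 0.102), although it was high together with them in control 6 and prednisolone 7. HSF1 and HSPA1A had r = 0.13 (permutation p = 0.664; rho = 0.05, p = 0.877). Over the 9 pairs of HSF1 the r ran from -0.41 to 0.13, with the lowest for HSPA8 (permutation p = 0.162; rho = -0.26, p = 0.383). It was -0.24 with HSPD1 and -0.20 with HSPB1. The values share arrays and their scaling.

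**Figure D4:**
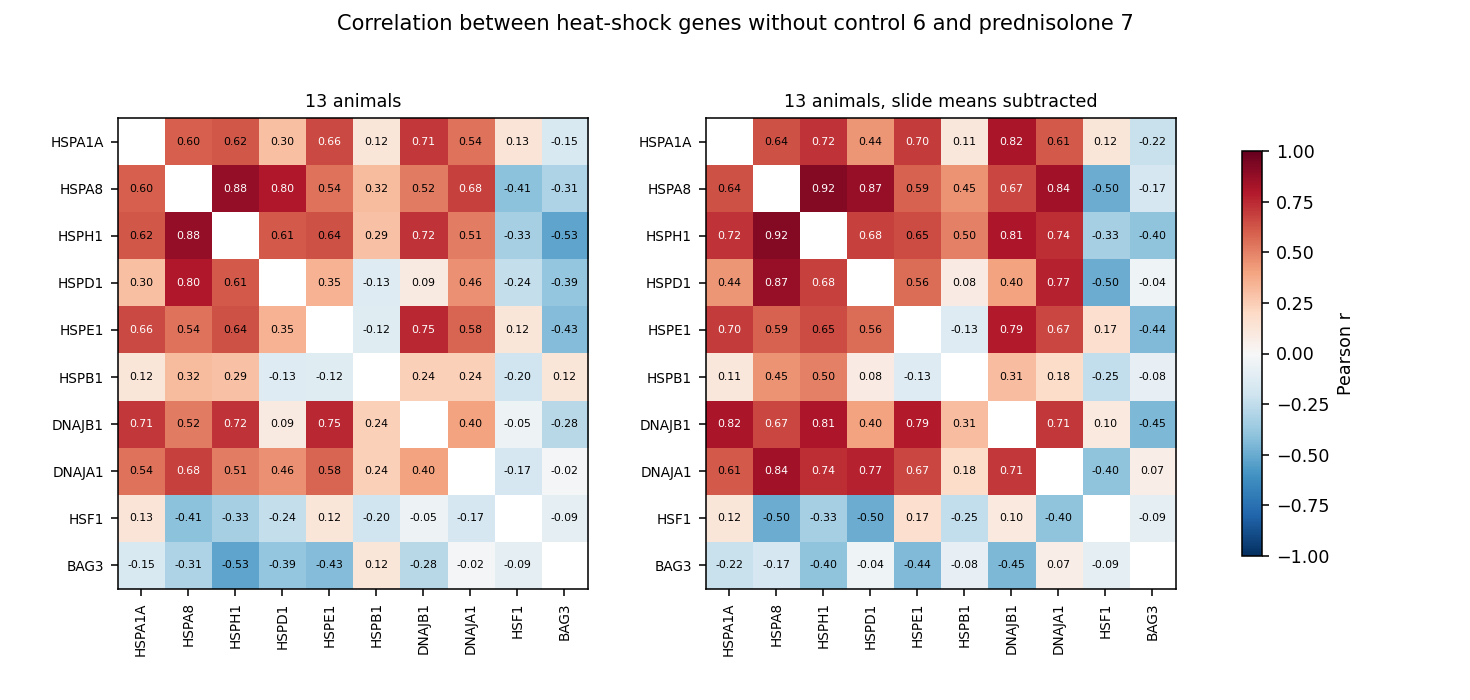
Pearson r between the log2 values of the heat-shock genes over the 13 animals without control 6 and prednisolone 7, before (left) and after (right) subtraction of slide means. The block of HSPA1A, HSPA8, HSPH1, HSPE1, DNAJB1 and DNAJA1 is red, while the HSF1 and BAG3 rows are pale or blue.

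The genes whose pattern was most like each heat-shock gene were in part other chaperones: of 30 named, 4 were among the 10 genes, 9 were in the chaperone lists and 17 in neither. Likeness is the lower of Pearson r over 15 animals and r with slide means subtracted, and is given with the r over 13 animals. The likeness includes control 6 and prednisolone 7. For HSPH1 they were CCDC117, a protein of little known function (likeness 0.99, r over 13 animals 0.97), AHSA1, which stimulates HSP90 (0.98 and 0.78), and STIP1, which links HSP70 to HSP90 (0.98 and 0.78). CCDC117 also came first for DNAJB1 (0.97 and 0.80), followed by HSPH1 (0.97 and 0.72) and DEDD2 (0.97 and 0.55). For HSPA1A they were DNAJB1, HSPH1 and AHSA1 (0.96, 0.95 and 0.95), with r over 13 animals of 0.71, 0.62 and 0.62. For HSPA8 they were HSPH1 (0.96 and 0.88), CCDC117 (0.95 and 0.81) and HSP90AA1 (0.95 and 0.76), the inducible HSP90. For HSPD1 they were EIF1B (0.96 and 0.94), HSP90AA1 (0.94 and 0.79) and GADL1 (0.93 and 0.67).

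For HSPE1 the most alike were AHSA1, CCDC117 and OAZ1 (each 0.96), with r over 13 animals of 0.55, 0.76 and 0.63. For HSPB1 they were FKBP4, an HSP90 partner of steroid receptors (0.95 and 0.85), GRK2 (0.94 and 0.80) and JMJD6 (0.93 and 0.92). For DNAJA1 they were HSPA4, a relative of HSPH1 (0.92 and 0.70), LSS (0.92 and 0.79) and CHORDC1 (0.92 and 0.84). BAG3 was less alike to any gene, with CNNM4 first (0.90 and 0.53), then AKIRIN2 (0.88 and 0.51) and SLC26A11 (0.85 and 0.45). HSF1 was most like the dim probes of NXPH3 (0.80 and 0.82), WNT2B (0.79 and 0.79) and IL17B (0.78 and 0.83).

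The wider chaperone system was read from 9 lists of 107 genes, 101 of them kept. In the treatment comparison 59 were higher and 42 lower with prednisolone, 0 passed, and the median log2 difference was 0.028 (0.005 without the 2 animals), beside the 0 of all kept probes. At an unadjusted limma p under 0.05 there were 9 of the 101, beside 7.08% of all kept probes, a share near it. They were PFDN1 (-0.16 ± 0.051, adjusted p = 0.592) and PFDN2 (0.16 ± 0.063) of prefoldin, DNAJA3 (0.26 ± 0.084), a J-domain protein of mitochondria, HSPA9 (0.19 ± 0.082), the HSP70 of mitochondria, and CLPB (-0.41 ± 0.16). The others were SIL1 (-0.16 ± 0.073) and the endoplasmic reticulum genes MANF (0.35 ± 0.13), ATF6 (-0.51 ± 0.18) and PDIA4 (0.29 ± 0.13), all with limma adjusted p-values from 0.592 to 0.700.

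The share of genes highest in both animals was largest in the HSP90 list, and no test compares the lists. In control 6 and prednisolone 7, 24 of the 101 genes (23.8%) were the highest of both groups, beside 4.69% of all kept probes. Among HSP90 and its partners these were 6 of 11: HSP90AA1, HSP90AB1, PTGES3, AHSA1, FKBP4 and STIP1. HSP90AA1 lay between 4.06 and 4.61 in the other controls and at 5.35 in control 6. In the other treated animals it lay between 4.20 and 4.77, and in prednisolone 7 at 6.34. The median excess of the list was 0.71 in control 6 and 1.72 in prednisolone 7 on the log2 scale, while that of the small heat-shock list was 0.78 and -0.16. FKBP4 was 2.53 and 4.39 times the medians of the other animals.

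Of 14 genes of the TRiC chaperonin and prefoldin, which fold newly made cytoskeletal proteins, 5 were highest in both, all of them TRiC subunits: CCT4, CCT5, CCT6A, CCT7 and CCT8. Of 21 J-domain proteins 4 were, DNAJA4, DNAJB2, DNAJB4 and DNAJB6, with DNAJA4 at 5.55 times the median in prednisolone 7. Of 10 further HSP70 and HSP110 genes 3 were, HSPA4, HSPA4L and HSPA5, the HSP70 of the endoplasmic reticulum, and HSPA4L was 2.21 and 6.65 times the other animals' medians. Of 12 BAG proteins and co-chaperones 3 were, BAG2 (3.95 and 6.05 times), ST13 and SERPINH1, a chaperone of collagen. Some of these genes led by little in control 6. CCT7 lay at 4.56 (other controls up to 4.55), CCT6A at 1.74 (up to 1.71) and HSPA5 at 4.20 (up to 4.18).

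The remaining lists held few or no genes that were highest in both animals. None of 14 other genes of folding in the endoplasmic reticulum was highest in both animals, 1 of 8 of mitochondrial quality control was (PHB), and 1 of 7 other small heat-shock proteins was (HSPB8). Among 4 heat-shock factors and regulators it was HSF2. Of 18 immediate-early genes, which respond within minutes to many stimuli, 1 was (JUND, 5.56%). With HSPH1 as predictor 17 of the 101 chaperone genes passed with a positive slope and 0 with a negative one, beside 0.629% and 0.429% of all kept probes. None of them passed without the 2 animals. Over the other 13 their r with HSPH1 ran from -0.03 for SERPINH1 and 0.07 for HSPA4 to 0.93 for HSP90B1. It was 0.79 for HSP90AA1 and 0.78 for AHSA1 and STIP1. The median of this r over the 101 genes was 0.21, beside -0.06 over all kept probes.

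**Figure D5:**
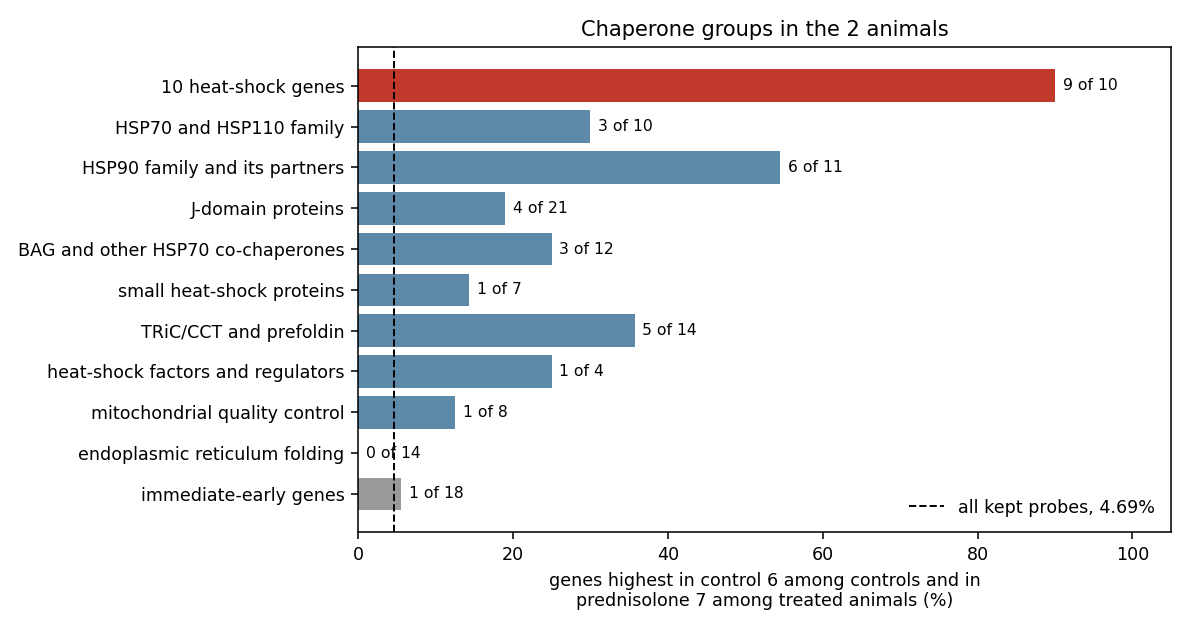
Percent of kept genes in each list whose highest control value was in control 6 and highest treated value in prednisolone 7, with counts. The dashed line is the 4.69% of all kept probes. The 10 heat-shock genes reach 9 of 10, the HSP90 list 6 of 11 and the endoplasmic reticulum list 0 of 14.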

How the data were processed

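Spot values are the intensity deposited for each spot by Agilent's Feature Extraction software, version 9.5.1.1 as the headers give it, per the file headers. Background had been subtracted and a spatial trend removed, but arrays had not been scaled to each other, per the file headers. Signals are printed to 3 significant digits. The flags for background, saturation and outliers come from the same software. The authors' own deposited table gives intensity without a log, with column medians of 184.8 to 271.2 over bovine spots and a rank correlation with the scanner signal of at least 0.9996. How its columns were scaled or centred is unknown. The submitters' notes name R 2.11.1 and no method. RNA came from TRIzol extraction and RNeasy MinElute cleanup, per the labels' protocols. The treatment label sets the groups.

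Here log2 signals were centred by array at the 75th percentile over bovine spots, outlier spots were dropped, and the spots of a probe averaged. None of the spots of the 10 described probes was saturated. A probe was kept if well above background on 7 or more of the 15 arrays, which left 16069. limma 3.58.1 (R 4.3.3, statmod 1.5.0) was fitted over all of them, with Benjamini-Hochberg adjustment and a threshold of 0.05. Permutation tests of pairs, two-sided, drew 1e+05 resamples. The scripts' fits were tested on simulated data. The 10 genes and all lists were chosen with earlier results of these data known. List genes were named by smallest p (up to 3 a list), and genes like a member by likeness (3 each). Genes highest in both animals were named after their values were seen. Alternatives were quantile normalization, median centring, normexp, the authors' values, outlier spots kept, other filters, slide as a block or without slide 4, eBayes with trend and robust, all probes of a gene averaged, and each animal left out. The summed level of 1 marker list is not reported here.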

Additional observations from a re-analysis of the deposited data

Results flagged for a closer look

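In the treated group the gap between prednisolone 7 and its nearest neighbour, as a share of the group's whole range, exceeded Dixon's limit of 0.526 for 9 heat-shock genes. It was 0.845 for DNAJB1, 0.818 for HSPE1, 0.802 for HSPA1A, 0.786 for HSPH1 and 0.751 for HSPA8. It was 0.683 for DNAJA1, 0.677 for HSPD1, 0.619 for HSPB1 and 0.599 for BAG3. In the controls the gap of control 6 exceeded the limit of 0.568 for DNAJB1 (0.767) and HSPH1 (0.574), the latter narrowly. Of 22 such group tests, on 11 probes, 11 passed the limit, where chance gives about 1 in 20. Of 16002 kept probes with all values, 5.05% passed at either end in the controls and 6.71% in the treated group, and prednisolone 7 was the high animal past the limit for 0.844% and control 6 for 0.387%. The tests share the same 2 animals and are not independent of each other.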

How the results depend on the processing

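No paired analysis was possible because each animal was either untreated or treated, and the labels match no treated animal to a control. The treatment comparison called 0 probes under most alternatives, 1 with quantile normalization, and 0 to 3 when an animal was left out (3 without prednisolone 1). No heat-shock gene passed under any of them over all kept probes, while the exact tests of HSF1 alone, at -0.32, lay below 0.05. HSPH1 turned to -0.00027 with quantile normalization, -0.62 without slide 4, -0.43 with slide as a fixed and -0.20 as a random block, and -0.078 without control 6 and prednisolone 7, an alternative chosen after seeing the data. DNAJA1 turned to -0.013 with normexp background correction, -0.13 without slide 4, -0.17 and -0.083 with the blocks, and -0.027 without the 2 animals. HSPA8 turned to -0.085 without slide 4 and -0.031 with the fixed block, and HSPE1 to 0.087 with normexp. With normexp the median of all probes moved by -0.208, and the medians of the HSP70 list (-0.219), the small heat-shock list (-0.28) and the heat-shock factor list (-0.258) with it. The endoplasmic reticulum list was 0.011 without slide 4 and 0.003 with the fixed block. Leaving out 1 animal gave ranges of -0.71 to 0.086 for HSPA1A, -0.032 to 0.36 for HSPA8, -0.50 to 0.45 for HSPH1, -0.18 to 0.017 for HSPE1, -0.056 to 0.23 for HSPB1, -0.49 to 0.041 for DNAJB1, -0.18 to 0.17 for DNAJA1 and -0.035 to 0.23 for BAG3. The lowest of each came without prednisolone 7, and the highest without control 6, except for HSPB1 (without prednisolone 2). Ordered pairs called were 27 with normexp, 10 without slide 4, which holds prednisolone 7, 13 to 53 with 1 animal left out (13 without prednisolone 7) and 0 without the 2 animals. Probes called for slide were 144 with normexp. The fits without slide 4 and with slide as a fixed block take no treatment difference from prednisolone 7 and keep control 6. Beyond this, the cause of these changes was not tested.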

Other observations

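Beyond the chaperones, the probes that followed HSPH1 over 15 animals held genes of other functions, named here after their values were seen. Of the 101 with a positive slope 87 were highest in both animals, beside 4.69% of all kept probes. Of the 69 with a negative slope 51 were lowest in both, beside 3.76%. HSPH1 was itself highest in these 2 animals, and its spread came largely from them. The counts therefore follow from how the probes were picked. CACYBP, a partner of a ubiquitin ligase, lay at 4.48 in control 6 (other controls 3.03 to 3.55) and 5.49 in prednisolone 7 (other treated 2.91 to 3.58). MAT2A, which makes the methyl donor of the cell, lay at 4.45 (3.71 to 4.20) and 4.94 (3.73 to 4.34). SESN2, a stress-induced regulator of growth signalling, lay at 2.43 (1.68 to 1.86) and 2.36 (1.60 to 2). On the lower side, IFI47, an interferon-induced GTPase, lay at -0.33 (0.76 to 1.57) and 0.09 (0.60 to 1.25). HOPX, a homeodomain protein, lay at -4.06 (-3.17 to -2.48) and -3.62 (-2.93 to -2.39). Without the 2 animals no probe passed in limma with HSPH1 as predictor, while r over the other 13 stayed at 0.78 for CACYBP and 0.75 for MAT2A. It was 0.31 for SESN2, 0.07 for IFI47 and -0.14 for HOPX.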
